A study of Homo sapiens with 12 samples.

Results

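SULF1, SULF2, SDC1, SDC2, SDC3, SDC4, GPC1, GPC2, GPC4 and GPC6 encode extracellular heparan sulfate sulfatases, syndecans and glypicans, and make up 10 of the 58174 genes listed in the expression tables. The family was chosen by function, from the known sulfatases and membrane core proteins, and because SULF2 mRNA lay on opposite sides of the control in the 2 cell lines studied upon IGF2BP1 knockdown. The levels and fold changes of these 10 genes are therefore given as a description, with no p-value, and how many passed the threshold of the fit over all genes is given once, beside the share of all genes that did. RNA was measured by poly-A RNA-seq in Hep-G2, a hepatoblastoma-derived line, and BE(2)-C, a neuroblastoma line, 72 h after transfection. In each line, 3 libraries came from cells given a control siRNA (siC) and 3 from cells given a pool of siRNAs against IGF2BP1 (siI1), 12 libraries in all. Hep-G2 cells received 15 nM siRNA but BE(2)-C cells 25 nM, so the concentration and the cell line cannot be told apart. The methods of the study call the 3 libraries of a group biological replicates, and error estimates and p-values cover the spread between these libraries. The libraries held 12852988 to 15721210 reads on genes.

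Heparan sulfate is a long, sulfated sugar chain that is built in the Golgi on core proteins and displayed at the cell surface and in the matrix. Syndecans carry it on transmembrane cores and glypicans on cores held by a lipid anchor, and the sulfation pattern sets how well growth factors, morphogens and their receptors bind. SULF1 and SULF2 are secreted enzymes that edit this pattern after synthesis by removing 6-O-sulfate groups from the finished chain.

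Levels are given as FPKM, a read density scaled to the length of the gene and the depth of the library. Fold changes of single genes are on the scale of log2(FPKM + 0.1), siI1 over siC, with a standard error, and so understate the change of genes with low levels. The tables of both lines were normalized separately, and any level compared between Hep-G2 and BE(2)-C is a comparison across tables. In bulk RNA, fewer cells expressing a gene and less RNA per cell cannot be told apart. A gene was tested in a line if it reached an FPKM of 0.1 in at least 3 of the 6 libraries, and was called where the adjusted p was below 0.05.

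IGF2BP1, the RNA-binding protein targeted by the siRNA pool, stood at 48.5, 46.6 and 50.8 FPKM in the siC libraries of Hep-G2 and at 12.6, 10.7 and 10.7 FPKM in the siI1 libraries. BE(2)-C had 21.3, 20.6 and 21.6 FPKM in siC and 4.85, 4.75 and 4.87 FPKM in siI1. The remaining level was 23.3% of siC in Hep-G2 (log2 fold change -2.10 ± 0.079, adjusted p = 7.83e-06) and 22.8% in BE(2)-C (-2.11 ± 0.048, adjusted p = 1.48e-05). The difference of these fold changes between the lines was 0.02 ± 0.093 (adjusted p = 0.914).

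Marker genes separated the lines by lineage. The summed level of 10 hepatocyte markers was 7874, 7830 and 7803 FPKM in the siC libraries of Hep-G2 and at most 0.434 FPKM in any BE(2)-C library, where 3 of them were at 0 in each library. The most abundant of them was ALB, serum albumin, with a mean of 3156 FPKM in siC of Hep-G2. Conversely, 10 sympathoadrenal markers summed to 3843, 3594 and 3619 FPKM in siC of BE(2)-C and to at most 0.620 FPKM in Hep-G2, where 4 were at 0 in each library. Here MYCN, the amplified oncogene of many neuroblastomas, led with a mean of 1660 FPKM, and CHGB, a granin of secretory vesicles, led in Hep-G2 with 0.387 FPKM. The lineage markers also moved upon IGF2BP1 knockdown. The hepatocyte sum was 12916, 14544 and 14701 FPKM in siI1 of Hep-G2 (6 genes higher, 2 lower of 10 tested). The sympathoadrenal sum was 4080, 3954 and 4020 FPKM in siI1 of BE(2)-C (3 higher, 4 lower of 10 tested). Of all tested genes, 44.8% were called in Hep-G2 and 28.2% in BE(2)-C.

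Markers of mesenchymal cells were also examined, since fibroblast-like cells carry much heparan sulfate. Their sum over 10 genes was 1.28, 1.34 and 1.38 FPKM in siC and 1.23, 3.03 and 1.31 FPKM in siI1 of Hep-G2, where PDGFRB, a growth factor receptor, was highest with 0.610 FPKM. For BE(2)-C the sum was 189, 179 and 182 FPKM in siC and 214, 218 and 208 FPKM in siI1. It was led in siC by the surface glycoprotein THY1 with a mean of 93.6 FPKM and by TWIST1 with 59.1 FPKM. Means of the other markers there ranged from 0.00604 FPKM (PRRX1) to 16.6 FPKM (PDGFRB). COL1A1 was at 0.698, COL1A2 at 0.178 and COL3A1 at 0.275 FPKM. Of 9 tested genes, 4 were higher and 0 lower, where 28.2% of all tested genes were called, 13.3% higher. None of the mesenchymal markers was at 0 in each library of either line. In Hep-G2, however, PRRX1 (5 reads) and TWIST1 (2 reads) had reads in siI1 replicate 2 alone. That library, with the sum of 3.03 FPKM, also held 77 of the 87 COL1A2 reads of the line. The part of these marker changes in the results on heparan sulfate genes was not tested.

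SULF2 (ENSG00000196562) was the sulfatase that both lines expressed. In Hep-G2 its mRNA was at 13.7, 13.7 and 14.1 FPKM in siC and at 38.5, 37.5 and 39.0 FPKM in siI1. The BE(2)-C values were 53.6, 50 and 51.4 FPKM in siC and at 30.0, 30.5 and 29.1 FPKM in siI1. The siI1 libraries thus lay above each siC library in Hep-G2 and below each in BE(2)-C, with no overlap in either line. In Hep-G2 the mean was 13.8 ± 0.205 FPKM in siC and 38.3 ± 0.761 FPKM in siI1 (SD, n = 3), 2.77-fold. For BE(2)-C it was 51.7 ± 1.81 and 29.9 ± 0.710 FPKM, 57.8% of siC. These are log2 fold changes of 1.46 ± 0.045 and -0.79 ± 0.044, which differ by 2.25 ± 0.059. Between 1242 and 3634 reads stood behind each Hep-G2 value and between 2692 and 5122 behind each BE(2)-C value. In siC, SULF2 was at percentile 82.8 of protein-coding genes in Hep-G2 and at percentile 95.4 in BE(2)-C. The order of the lines was thereby turned: across the tables, siC of BE(2)-C held the higher level of SULF2 before knockdown and siI1 of Hep-G2 held the higher level after it.

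SULF1, the second enzyme of this kind, was near the limit of detection in both lines. In Hep-G2 the libraries held 1, 0 and 0 SULF1 reads in siC and 0, 2 and 0 in siI1. BE(2)-C libraries held 4, 0 and 1 reads in siC and 2, 0 and 0 in siI1. No library exceeded 0.0296 FPKM, SULF1 was not tested in either line, and no fold is given. Summed over the 3 libraries of a group, there were 1 and 2 reads in siC and siI1 of Hep-G2, and 5 and 2 reads in those of BE(2)-C. At this depth, SULF2 was the sulfatase transcript that carried nearly the whole signal of the pair in each of the 12 libraries.

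**Figure D1:**
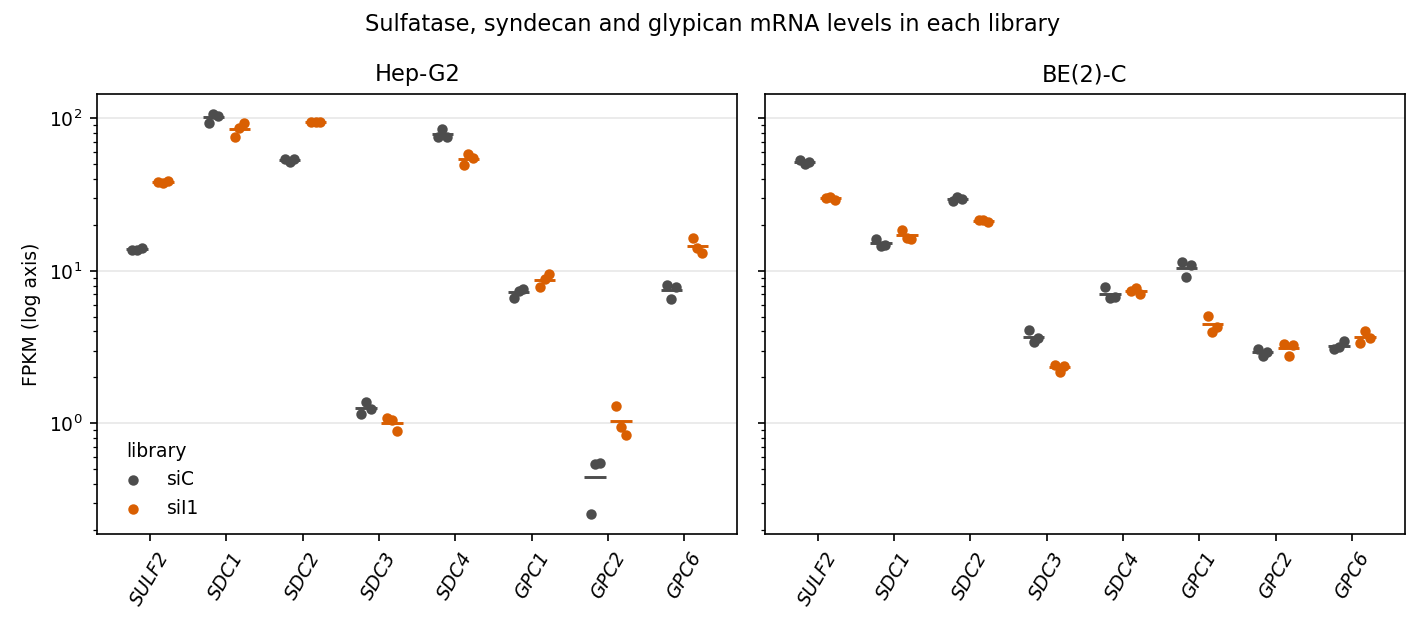
FPKM of SULF2, the 4 syndecans and GPC1, GPC2 and GPC6 in each library (points; vertical log axis) of Hep-G2 and BE(2)-C, with the group mean as a bar; grey marks siC and orange siI1. SULF2 goes from 13.8 up to 38.3 FPKM in Hep-G2 and from 51.7 down to 29.9 FPKM in BE(2)-C, while SULF1 and GPC4 are too low to be drawn.

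The SULF2 gene spans chr20:47656197-47786616 on the minus strand (GRCh38, GENCODE), and its start regions are shown here because its mRNA was higher in siI1 of Hep-G2 but lower in siI1 of BE(2)-C. GPC1, with the same pair of directions, and GPC6, higher in siI1 of Hep-G2, are printed beside it for comparison. GPC1 spans chr2:240435663-240468076 and GPC6 spans chr13:93226807-94408020, both on the plus strand. Each sequence holds the 250 bases upstream of a transcript start, 5′ to 3′ on the strand of the gene, from RefSeq on GRCh38.p14. Of the 10 family genes, 8 were matched in that table, with 12 start sites. Capitals mark letters of the GC box (GGGCGG or CCGCCC) or of the TATA box (TATAAA or TTTATA), and the E-box CACGTG was also searched. Both strands were read, and neighbouring GC boxes can overlap. The windows lie at chr20:47785482-47785731 for SULF2, chr2:240435413-240435662 for GPC1 and chr13:93226557-93226806 for GPC6.
SULF2: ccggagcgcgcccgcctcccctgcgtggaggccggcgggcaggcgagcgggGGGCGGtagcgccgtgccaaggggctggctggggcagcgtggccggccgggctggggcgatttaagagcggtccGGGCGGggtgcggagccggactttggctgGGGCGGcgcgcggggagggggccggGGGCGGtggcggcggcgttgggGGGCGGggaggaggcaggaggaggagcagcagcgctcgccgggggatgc
GPC1: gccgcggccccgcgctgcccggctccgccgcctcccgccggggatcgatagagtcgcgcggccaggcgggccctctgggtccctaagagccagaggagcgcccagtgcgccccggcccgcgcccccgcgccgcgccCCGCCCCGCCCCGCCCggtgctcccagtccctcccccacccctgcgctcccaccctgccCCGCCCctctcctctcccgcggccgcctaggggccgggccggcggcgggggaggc
GPC6: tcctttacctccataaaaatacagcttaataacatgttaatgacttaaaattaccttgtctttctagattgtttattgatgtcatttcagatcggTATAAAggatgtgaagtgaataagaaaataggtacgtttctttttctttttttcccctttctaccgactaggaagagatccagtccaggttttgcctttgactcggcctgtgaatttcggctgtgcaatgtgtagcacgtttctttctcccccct

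These windows differ in composition. The SULF2 window has a GC content of 81.2% and 5 GC boxes, the GPC1 window 84.0% and 4 GC boxes, and the GPC6 window 37.6%, no GC box and 1 TATA box. The median over 35116 promoter windows of the same length was 58.0%. A GC box was present in 42.6% of these windows, an E-box in 6.34% and a TATA box in 10.7%. Windows of SDC1, SDC3, SDC4, GPC2 and GPC4, which did not show the pair of directions of SULF2, had a GC content of 66.4% to 83.6%. They held 1 to 8 GC boxes each. SULF2 has 3 further listed starts, whose windows have a GC content of 56.0% to 56.8% and at most 1 GC box. Of these, the one with its window at chr20:47786097-47786346 holds 1 E-box. A match describes letters in the window and is neither a binding site nor a cause of a change.

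Exons of SULF2 overlap exons of NCOA3 on the opposite strand by 247 bases and those of a long non-coding RNA by 212 bases. NCOA3, a nuclear receptor coactivator, was at a mean of 20.6 FPKM in siC of Hep-G2 and 3.06 FPKM in siC of BE(2)-C, and the non-coding RNA at 0.149 and 2.91 FPKM. GPC6 shares 511 exon bases with another non-coding RNA of the opposite strand, at 1.58 and 0.960 FPKM. The libraries were strand-specific, but whether the read counting used the strand was not given in the sources used here. If it did not, reads from these shared stretches cannot be assigned to a strand. The annotated 3′ UTRs of the 10 genes ranged from 624 bases (GPC2) to 4803 bases (GPC6). SULF2 has one of 956 bases, at percentile 46.3 of 18780 transcripts.

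Among syndecans, SDC2 followed the same pair of directions as SULF2. SDC2, a syndecan of mesenchymal and hepatic cells that acts as a co-receptor for growth factors, was at 54.3, 52.1 and 54.4 FPKM in siC and 95.1, 94.9 and 94.4 FPKM in siI1 of Hep-G2. The BE(2)-C libraries had 28.9, 30.6 and 29.5 FPKM in siC and 21.4, 21.5 and 20.8 FPKM in siI1. The groups did not overlap in either line, with siI1 on the high side in Hep-G2 and on the low side in BE(2)-C. The level was 1.77-fold that of siC in Hep-G2 (log2 fold change 0.82 ± 0.045) and 71.6% of siC in BE(2)-C (-0.48 ± 0.043), a difference of 1.30 ± 0.056.

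SDC1, the main syndecan of epithelial cells and hepatocytes, was the most abundant syndecan in siC of Hep-G2. It was at 94.0, 108 and 103 FPKM in siC and 75.9, 87.1 and 94.0 FPKM in siI1 of that line. The lowest siC and the highest siI1 library met at the same rounded level, and the groups overlapped (84.3% of siC, log2 fold change -0.25 ± 0.093). This value was -0.42 with equal sums of FPKM, -0.16 with median centring and -0.17 without siI1 replicate 1. BE(2)-C had SDC1 at 16.2, 14.6 and 14.8 FPKM in siC and 18.7, 16.3 and 16.2 FPKM in siI1, 112% of siC (0.16 ± 0.072, and 0.098 without siI1 replicate 1). There the siI1 libraries lay above siC by a narrow margin, and the fold changes differed between the lines by -0.41 ± 0.12.

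SDC4, a ubiquitous syndecan of focal adhesions, was lower upon IGF2BP1 knockdown in Hep-G2, from 75.7, 85.6 and 75.7 FPKM to 49.8, 58.5 and 55.1 FPKM. The groups did not overlap there, with 68.9% of siC left (log2 fold change -0.54 ± 0.080). Its BE(2)-C values were 7.81, 6.66 and 6.73 FPKM in siC and 7.35, 7.69 and 7.0 FPKM in siI1, and the groups overlapped (0.06 ± 0.080, and 0.018 to 0.13 over the alternatives). SDC3, the syndecan typical of neural tissue, was the least abundant in both lines. In Hep-G2 it was at 1.15, 1.38 and 1.24 FPKM in siC and 1.09, 1.05 and 0.889 FPKM in siI1, from 84 to 133 reads (-0.29 ± 0.16), with the siI1 libraries lower by little. That value was -0.44 with equal sums of FPKM and -0.17 with a pseudocount of 1. Its level in BE(2)-C was 4.09, 3.40 and 3.62 FPKM in siC and 2.40, 2.18 and 2.38 FPKM in siI1, 62.7% of siC (-0.65 ± 0.099), and the groups lay clearly apart. The fold change differed between the lines by -0.59 ± 0.11 for SDC4 and by 0.36 ± 0.17 for SDC3, the latter by 0.19 with equal sums of FPKM.

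Summed over the 4 syndecans, the level in Hep-G2 was 235 ± 10.9 FPKM in siC and 236 ± 12.3 FPKM in siI1 (SD, n = 3), a difference smaller than the spread between libraries. Scaled to equal sums of FPKM, it was 249.95 ± 5.73 and 223 ± 0.381 FPKM, with each siI1 library below each siC library, and with median centring the groups overlapped (228 ± 10.03 and 244 ± 12.5 FPKM). Within this sum the makeup differed between siC and siI1. SDC2 made up 22.8% ± 1.53 in siC and 40.3% ± 2.28 in siI1, whereas SDC1 went from 43.1% ± 1.22 to 36.2% ± 2.14 and SDC4 from 33.5% ± 1.20 to 23.1% ± 0.994. SDC3 stayed a minor component with 0.532% and 0.430%. SDC2 thereby stood above SDC1 in the mean of siI1, after being the third in siC. In siI1 replicate 3 the shares of SDC2 and SDC1 were nearly level, at 38.6% and 38.5%.

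The syndecan sum of BE(2)-C was lower, 55.7 ± 1.16 FPKM in siC and 48.0 ± 1.74 FPKM in siI1. SDC2 made up 53.4% ± 2.40 of it in siC and 44.3% ± 1.145 in siI1. The share of SDC1 was 27.3% ± 0.996 and 35.5% ± 1.69, and that of SDC4 12.7% ± 0.901 and 15.3% ± 0.708. SDC3 accounted for 6.65% and 4.84%. The SDC2 share was thus larger in siI1 than in siC of Hep-G2 and smaller in siI1 than in siC of BE(2)-C, by more than the SD of either group.

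**Figure D2:**
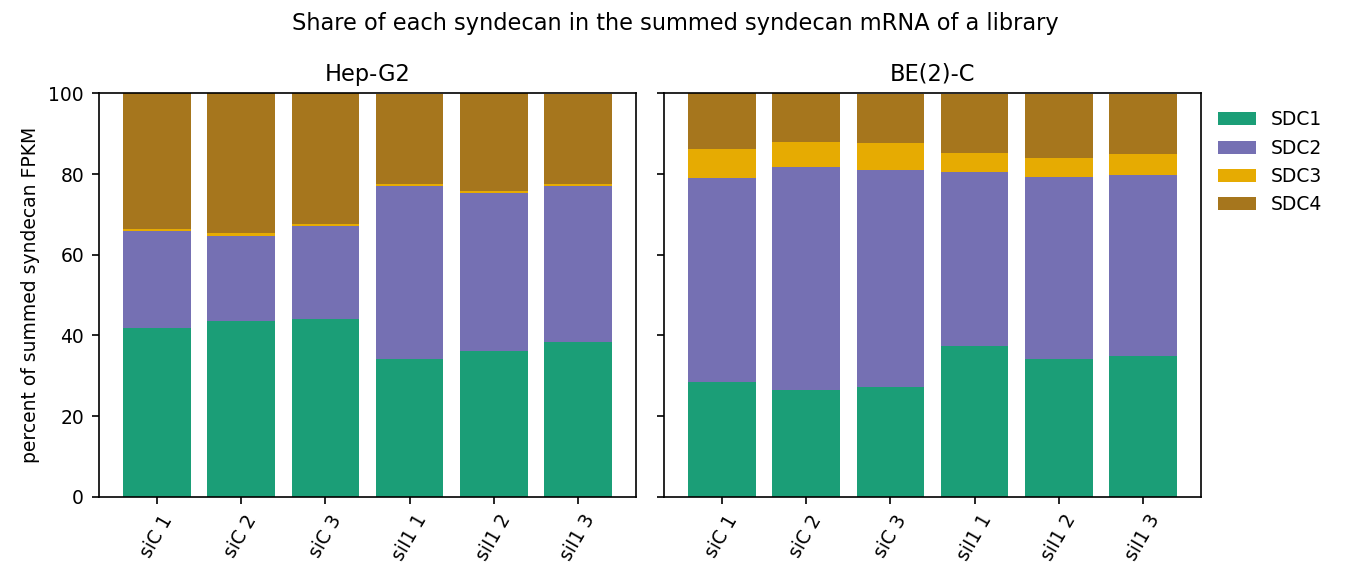
Share of each syndecan in the summed syndecan FPKM of each library (stacked bars, percent), for Hep-G2 and BE(2)-C. The SDC2 share is 22.8% in siC and 40.3% in siI1 of Hep-G2, and 53.4% in siC and 44.3% in siI1 of BE(2)-C (group means).

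Glypicans also differed between the lines. GPC1, a glypican of the nervous system and of many tumors that binds fibroblast growth factors, was at 6.63, 7.41 and 7.61 FPKM in siC and 7.86, 8.85 and 9.47 FPKM in siI1 of Hep-G2. BE(2)-C had 11.4, 9.15 and 10.9 FPKM in siC and 5.06, 3.98 and 4.29 FPKM in siI1. The groups did not overlap in either line, but the gap in Hep-G2 was small. The fold over siC was 1.21 in Hep-G2 (log2 fold change 0.27 ± 0.092) and 42.3% of siC was left in BE(2)-C (-1.22 ± 0.12), a difference of 1.49 ± 0.16. With equal sums of FPKM, the Hep-G2 value was 0.10.

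GPC6, a widely expressed glypican of growth plate and other mesenchymal tissues, was at 8.02, 6.58 and 7.86 FPKM in siC and 16.5, 14.2 and 13.1 FPKM in siI1 of Hep-G2. The siI1 libraries lay well above siC, with a mean of 1.95-fold (log2 fold change 0.95 ± 0.11). The groups overlapped in BE(2)-C, with 3.06, 3.15 and 3.47 FPKM in siC and 3.38, 4.01 and 3.61 FPKM in siI1 (0.18 ± 0.096, and 0.11 without siI1 replicate 2). GPC2, a glypican of developing neurons and of neuroblastoma, was at 3.08, 2.77 and 2.91 FPKM in siC and 3.295, 2.77 and 3.27 FPKM in siI1 of BE(2)-C, and the groups overlapped (0.09 ± 0.10, and 0.045 to 0.17 without single libraries). In Hep-G2 it was scarce, at 0.252, 0.537 and 0.549 FPKM in siC and 1.29, 0.951 and 0.840 FPKM in siI1. These values rest on 15 to 67 reads, and the log2 fold change was 1.08 ± 0.31 with a pseudocount of 0.1 and 0.49 with a pseudocount of 1. The fold changes differed between the lines by 0.78 ± 0.15 for GPC6 and 0.99 ± 0.32 for GPC2, the latter 0.42 with a pseudocount of 1.

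GPC4, a glypican of stem cells and adipose tissue, was hardly detected. It had 4, 4 and 2 reads in siC and 1, 3 and 3 in siI1 of Hep-G2, and 1, 0 and 0 reads in siC and 2, 0 and 0 in siI1 of BE(2)-C. The highest value was 0.0592 FPKM, and GPC4 was not tested in either line. The sum of the 4 glypicans of the family, GPC4 included, was 15.2 ± 0.760 FPKM in siC and 24.4 ± 1.12 FPKM in siI1 of Hep-G2. The same sum in BE(2)-C was 16.6 ± 1.38 FPKM in siC and 11.2 ± 0.501 FPKM in siI1. This sum was therefore higher in siI1 than in siC of Hep-G2 and lower in BE(2)-C, in each case by more than the spread between libraries.

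**Figure D3:**
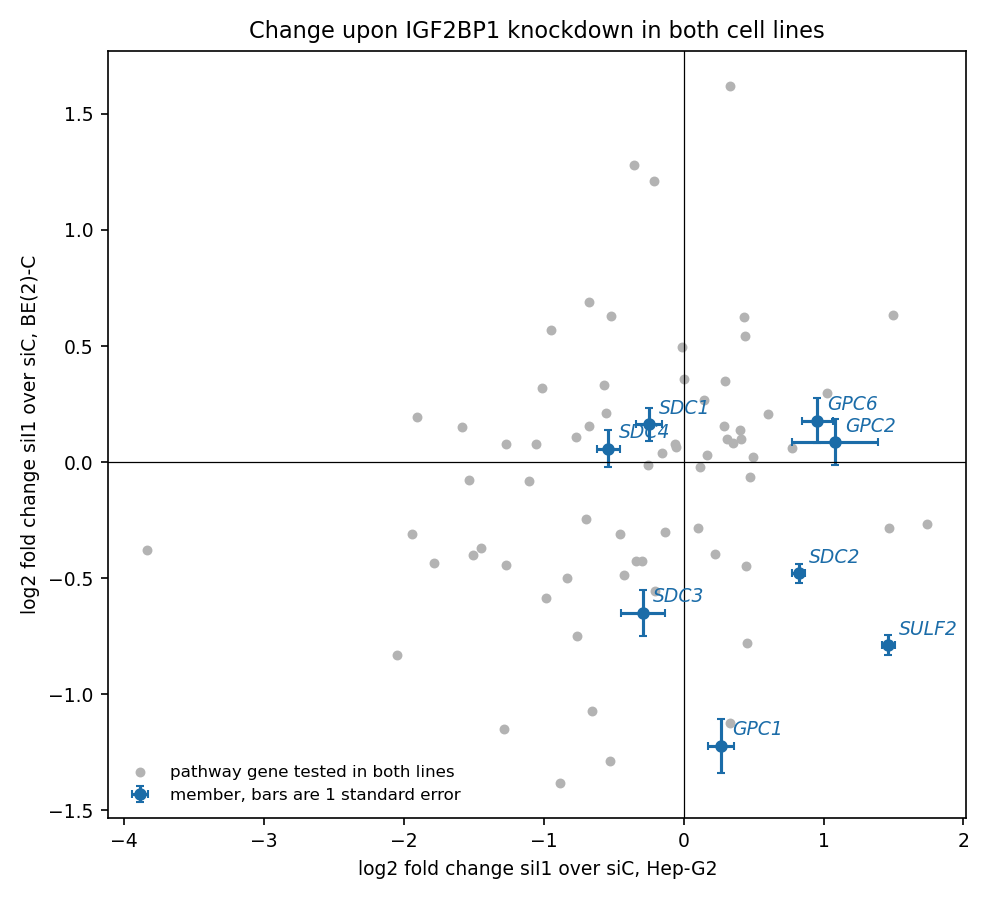
Log2 fold change, siI1 over siC, in Hep-G2 (horizontal) against BE(2)-C (vertical) for the 8 family genes tested in both lines (blue, bars are 1 standard error) and for the listed genes of heparan sulfate synthesis, turnover and binding (grey). SULF2 lies at 1.46 and -0.79, SDC2 at 0.82 and -0.48 and GPC1 at 0.27 and -1.22, at the lower right, where Hep-G2 is higher and BE(2)-C lower.

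Of the 10 family genes, 8 passed the filter in each line, and SULF1 and GPC4 passed in neither. In Hep-G2, 5 were past the threshold, 4 higher and 1 lower, where 44.8% of all tested genes and 55.9% of tested protein-coding genes were called, 21.9% higher and 23.0% lower. The groups did not overlap for 7 family genes in Hep-G2 (5 higher, 2 lower), and for 55.8% of all tested genes. Among those of BE(2)-C, 4 were past the threshold, 0 higher and 4 lower, where 28.2% of all tested genes and 35.4% of protein-coding ones were called, 13.3% higher and 14.8% lower. For 5 family genes the groups did not overlap in BE(2)-C (1 higher, 4 lower), and for 45.0% of all tested genes. Because the genes were picked with the contrast known, nothing is read from these counts.

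A change that differed between the lines was common in these data. Of 15362 genes tested in both lines, 40.2% had a fold change that differed at an adjusted p below 0.05. Genes called higher in Hep-G2 but lower in BE(2)-C made up 3.31% (508 genes), and the reverse pattern 2.51% (386 genes).

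The wider heparan sulfate system was followed with 102 listed genes that make, modify, degrade, carry or bind the chain, or make the related chondroitin sulfate. For each listed gene named here as higher or lower, the 3 siI1 libraries of that line lay on the same side of the 3 siC libraries. In Hep-G2, 77 were tested, of which 19 were higher and 33 lower. In all 67.5% were called, beside 44.8% of all tested genes and 55.9% of tested protein-coding ones. The median log2 fold change was -0.21, beside 0.01 over all tested genes and -0.04 over protein-coding ones. In BE(2)-C, 83 were tested, of which 18 were higher and 22 lower, 48.2% in all beside 28.2% and 35.4%. The median was 0.04, beside 0.02 and -0.01. The 18 include GPC5 and FGF18, which passed the filter in BE(2)-C through their siI1 libraries alone. The shares over all tested genes apply to each list below, and whether a list differs from them was not tested. With equal sums of FPKM in each library, the median of all genes in Hep-G2 shifted by -0.15, and 12 rather than 19 listed genes were higher. The change differed between the lines for 40 of the 68 listed genes tested in both, 13 with the higher and 27 with the lower value in Hep-G2.

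**Figure D4:**
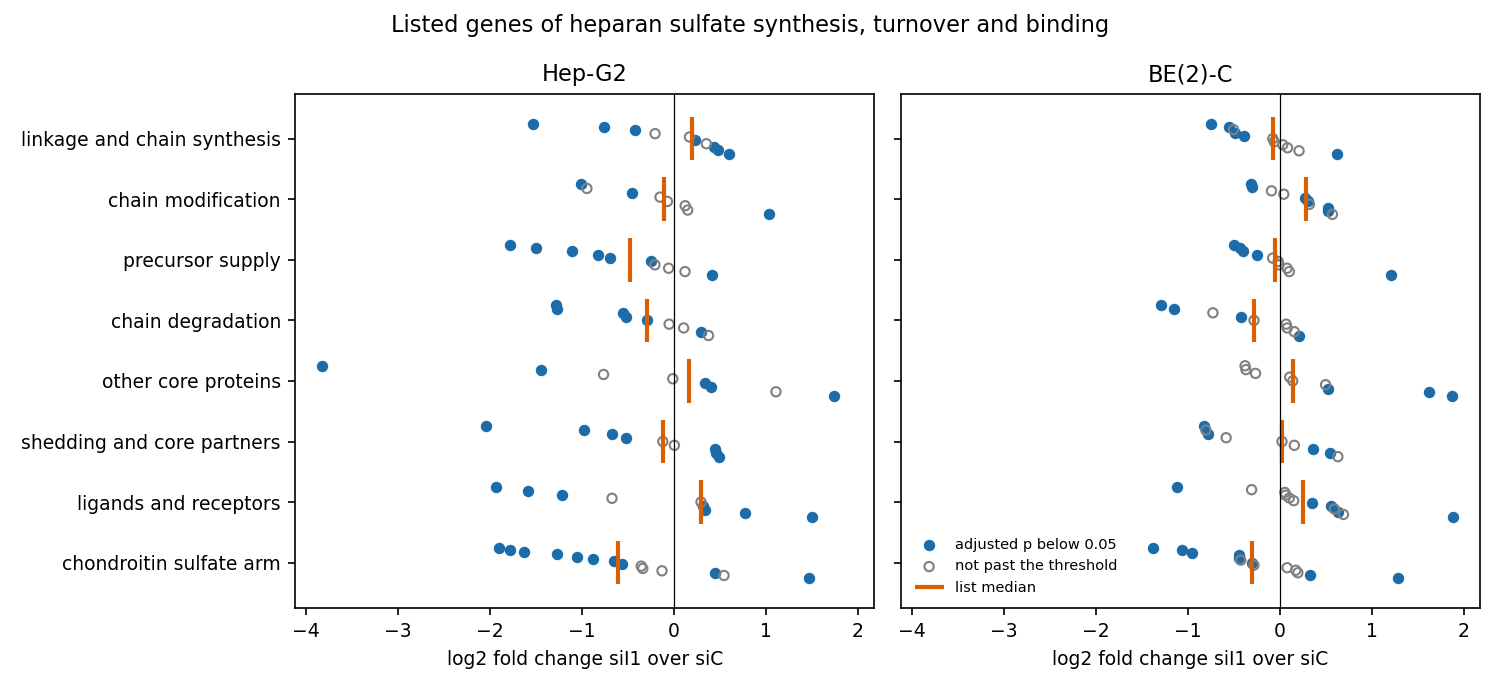
Log2 fold change, siI1 over siC, of each tested gene of the 8 lists in Hep-G2 and BE(2)-C; filled points passed the adjusted p of 0.05, open points did not, and the orange bar is the median of the list. The median for precursor supply is -0.48 (Hep-G2) and -0.05 (BE(2)-C), that for the chondroitin sulfate arm -0.61 and -0.30.

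Of the genes that build the linkage region and the chain, 10 were tested in Hep-G2 (4 higher, 3 lower, median 0.20) and 11 in BE(2)-C (1 higher, 4 lower, median -0.08). In Hep-G2, 2 were higher and 4 lower with equal sums of FPKM (median 0.05). FAM20B, the kinase that phosphorylates the first xylose of the linkage, fell in Hep-G2 from 13.3 ± 1.03 to 4.54 ± 0.185 FPKM (log2 fold change -1.53 ± 0.077, adjusted p = 1.98e-05). Its BE(2)-C means were 12.2 and 11.5 FPKM (-0.08, adjusted p = 0.574), and the difference between the lines was -1.45 (adjusted p = 6.16e-06). EXTL3, which starts the heparan sulfate chain, fell in both lines, by -0.76 (adjusted p = 0.000395) and -0.75 (adjusted p = 0.000619), with a difference of -0.01 ± 0.098 (adjusted p = 0.931). EXT2, a subunit of the chain polymerase, was higher in Hep-G2 (0.23, adjusted p = 0.01003) and lower in BE(2)-C (-0.39, adjusted p = 0.00688), a difference of 0.62 (adjusted p = 0.000182). The Hep-G2 call of EXT2 was lost with equal sums of FPKM (0.06, adjusted p = 0.476).

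B3GAT3, which adds the glucuronic acid that completes the linkage, rose in BE(2)-C from 27.1 to 41.8 FPKM (0.62 ± 0.053, adjusted p = 0.000448) and in Hep-G2 from 11.2 to 15.3 FPKM (0.44 ± 0.14, adjusted p = 0.0398). Its Hep-G2 call was lost without any single siC library and without siI1 replicate 2 or 3 (adjusted p 0.0723 to 0.122), and with equal sums of FPKM (0.27, adjusted p = 0.0794). B3GALT6, which adds a galactose of the linkage, rose in Hep-G2 from 8.97 to 13.7 FPKM (0.60 ± 0.15, adjusted p = 0.0179). That call was lost without siC replicate 1 or 3 or siI1 replicate 2 or 3 (adjusted p 0.0544 to 0.0637). The BE(2)-C value for B3GALT6 was 0.21 (adjusted p = 0.0575), past the threshold without siC replicate 1 (0.26, adjusted p = 0.0241) and in 5 other alternatives (adjusted p 0.0215 to 0.0429). Its difference between the lines was 0.39 (adjusted p = 0.106), past the threshold with voom (adjusted p = 0.0428) and without siC replicate 2 (adjusted p = 0.0453) or siI1 replicate 1 (adjusted p = 0.00745) of Hep-G2. For B3GAT3 the difference was -0.19 (adjusted p = 0.375), and -0.38 with equal sums of FPKM (adjusted p = 0.0248).

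Chain modification enzymes were represented by 8 tested genes in Hep-G2 (1 higher, 2 lower, median -0.11) and 10 in BE(2)-C (4 higher, 2 lower, median 0.28). The Hep-G2 median was -0.28 with equal sums of FPKM and -0.02 with median centring, where 2 were higher and 0 lower. NDST1, whose product starts sulfation by replacing acetyl with sulfate groups, rose from 8.63 ± 0.386 to 17.7 ± 0.647 FPKM in Hep-G2 (1.03 ± 0.060, adjusted p = 3.13e-05) and from 15.7 ± 0.672 to 19.4 ± 0.497 FPKM in BE(2)-C (0.30 ± 0.050, adjusted p = 0.00533). The rise was larger in Hep-G2 by 0.73 (adjusted p = 2.44e-05). HS6ST1, HS6ST2 and HS6ST3 add the 6-O-sulfate that SULF2 removes. HS6ST1 rose in BE(2)-C from 22.1 to 26.7 FPKM (0.27, adjusted p = 0.0102) and was at 34.3 and 38.1 FPKM in Hep-G2 (0.15, adjusted p = 0.144), a difference of -0.12 ± 0.092 (adjusted p = 0.339). The Hep-G2 value was past the threshold with median centring (0.24, adjusted p = 0.0314) and without siI1 replicate 1 (0.22, adjusted p = 0.00679), and the difference with equal sums of FPKM (-0.31, adjusted p = 0.00652). Over the alternatives, the Hep-G2 value ranged from -0.018 to 0.24, so its sign was not fixed. HS6ST2 rose in BE(2)-C from 6.66 to 9.61 FPKM (0.52, adjusted p = 0.00186) and had 0 to 3 reads in the Hep-G2 libraries. HS6ST3, named after its values were seen, rose in BE(2)-C from 3.98 to 5.74 FPKM (0.52, adjusted p = 0.00751) and had 0 reads in each Hep-G2 library. In BE(2)-C, the mRNA of SULF2 was thus lower and those of the 3 listed 6-O-sulfotransferases were higher in siI1.

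GLCE, the epimerase that makes iduronic acid, was lower in both lines, by -0.46 in Hep-G2 (adjusted p = 0.0385) and -0.31 in BE(2)-C (adjusted p = 0.0191). The Hep-G2 call was lost without siC replicate 1 or 3 or siI1 replicate 2 or 3 (adjusted p 0.0943 to 0.124) and with median centring (adjusted p = 0.0809). The BE(2)-C call was lost without siC replicate 2 or 3 or siI1 replicate 1 or 2 (adjusted p 0.0501 to 0.0679). HS3ST2, a brain-type sulfotransferase, was lower in BE(2)-C, from 20.6 to 16.6 FPKM (-0.32, adjusted p = 0.0226), a call lost without siC replicate 1 or 3 or siI1 replicate 1 (adjusted p 0.0582 to 0.0643). In Hep-G2 it had at most 1 read in a library.

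Precursor supply, the genes for nucleotide sugars, the sulfate donor and their transporters, was tested with 10 genes in each line. In Hep-G2, 1 was higher and 6 were lower (median -0.48, and between -0.64 and -0.38 with the other scalings). Of the same genes in BE(2)-C, 1 was higher and 4 were lower (median -0.05), and the change differed between the lines for 7 of 10, each with the lower value in Hep-G2. UXS1, which makes UDP-xylose, the sugar that starts the linkage, fell from 22.9 ± 0.824 to 6.59 ± 0.143 FPKM in Hep-G2 (-1.78 ± 0.054, adjusted p = 3.56e-06). In BE(2)-C it fell from 2.25 to 1.63 FPKM (-0.43, adjusted p = 0.0281), a call kept without siC replicate 3 but lost without any other single library (adjusted p 0.0694 to 0.0901). The difference between the lines was -1.35 (adjusted p = 3.68e-06).

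UGDH, which makes the UDP-glucuronic acid that heparan sulfate is built from, was the most abundant of this list in siC of Hep-G2. It fell from 137 ± 3.28 to 77.2 ± 6.39 FPKM there (-0.83 ± 0.070, adjusted p = 0.000141) and from 6.86 to 4.81 FPKM in BE(2)-C (-0.50 ± 0.093, adjusted p = 0.00795). The difference of -0.33 (adjusted p = 0.0375, and -0.52 with equal sums of FPKM) was lost without any single siC library of Hep-G2, without its siI1 replicate 2 or 3, or without siC replicate 3 or siI1 replicate 1 or 3 of BE(2)-C (adjusted p 0.0528 to 0.0907). It was also lost with median centring (-0.28, adjusted p = 0.0779), with no filter (adjusted p = 0.0524) and without the trend (adjusted p = 0.0657). SLC35B2, the Golgi transporter of the sulfate donor, fell in Hep-G2 from 45.8 to 28.3 FPKM (-0.70, adjusted p = 0.000131) and less in BE(2)-C, from 47.4 to 39.9 FPKM (-0.25, adjusted p = 0.0221), a difference of -0.45 (adjusted p = 0.00146). Its BE(2)-C call was lost without any single siI1 library (adjusted p 0.0625 to 0.0731). UGP2, which makes UDP-glucose, rose in Hep-G2 from 26.3 to 35.0 FPKM (0.41, adjusted p = 0.00148), with 0.10 in BE(2)-C (adjusted p = 0.545) and a difference of 0.31 (adjusted p = 0.0572). This difference was past the threshold without siC replicate 1 of BE(2)-C (0.41, adjusted p = 0.00617) and in 4 other alternatives (adjusted p 0.0213 to 0.0448), and the Hep-G2 value of UGP2 was 0.25 with equal sums of FPKM. SLC35D2, a nucleotide sugar transporter, rose in BE(2)-C from 3.04 to 7.13 FPKM (1.21 ± 0.11, adjusted p = 0.000590), with -0.21 in Hep-G2 (adjusted p = 0.0834, and -0.37 with adjusted p = 0.00132 for equal sums of FPKM), a difference of -1.42 (adjusted p = 1.92e-05).

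Chain degradation was tested with 9 genes in each line, SUMF1 included. In Hep-G2, 1 was higher and 5 were lower (median -0.30), and in BE(2)-C 1 was higher and 3 were lower (median -0.28). With equal sums of FPKM the Hep-G2 median was -0.46 (0 higher, 5 lower), and among genes with at least 10 reads on average the BE(2)-C median was -0.11. SUMF1, the enzyme that activates sulfatases including SULF1 and SULF2, fell in both lines. It went from 6.42 ± 0.290 to 2.60 ± 0.324 FPKM in Hep-G2 (-1.28 ± 0.11, adjusted p = 0.000135) and from 1.33 ± 0.0669 to 0.547 ± 0.0707 FPKM in BE(2)-C (-1.15 ± 0.16, adjusted p = 0.00259, and -0.59 with a pseudocount of 1). The difference was -0.13 ± 0.17 (adjusted p = 0.587) with a pseudocount of 0.1 and -0.46 (adjusted p = 0.00540) with a pseudocount of 1. In Hep-G2, SULF2 mRNA was therefore higher in the same libraries in which the mRNA of its activating enzyme was lower.

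GUSB, lysosomal beta-glucuronidase, fell more in BE(2)-C (24.5 to 9.97 FPKM, -1.29, adjusted p = 0.000109) than in Hep-G2 (15.2 to 10.5 FPKM, -0.52, adjusted p = 0.000395), a difference of 0.77 (adjusted p = 3.12e-05). HGSNAT, the lysosomal acetyltransferase of the pathway, was higher in Hep-G2 (0.29, adjusted p = 0.0146), a call lost without siC replicate 2 (adjusted p = 0.0525) and with equal sums of FPKM (0.13, adjusted p = 0.326).

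Other core proteins comprised 8 tested genes in Hep-G2 (3 higher, 2 lower, median 0.16) and 9 in BE(2)-C (3 higher, 0 lower, median 0.14), and the Hep-G2 median was -0.01 with equal sums of FPKM. The 3 include GPC5, which passed the filter in BE(2)-C through its siI1 libraries alone. GPC3, the oncofetal glypican of liver tumors, dominated the cores of Hep-G2 with 1214, 1220 and 1197 FPKM in siC and 1447, 1563 and 1562 FPKM in siI1, rank 9 among protein-coding genes in siC. It made up 82.8% ± 0.583 of the summed FPKM of GPC3, GPC5, the syndecans and the 4 glypicans of the family in siC and 85.4% ± 0.0653 in siI1. The log2 fold change was 0.33 ± 0.10 (adjusted p = 0.0339), a call lost without any single siC library and without siI1 replicate 2 or 3 (adjusted p 0.0931 to 0.133), and also with no filter (adjusted p = 0.175). It was 0.16 with equal sums of FPKM. BE(2)-C libraries had GPC3 at 0.0257, 0.144 and 0.106 FPKM in siC and 0.692, 0.391 and 0.372 FPKM in siI1, from 1 to 29 reads. There the log2 fold change was 1.62 ± 0.37 (adjusted p = 0.0178), lost without siI1 replicate 1 (adjusted p = 0.0616), and 0.44 with a pseudocount of 1 but 2.47 with one of 0.01. GPC3 made up 0.128% of the same sum in siC and 0.801% in siI1. The difference of -1.29 between the lines (adjusted p = 0.00782) was -0.11 with a pseudocount of 1 (adjusted p = 0.452).

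TGFBR3, also named betaglycan, a part-time proteoglycan and co-receptor for transforming growth factor beta, was at 21.8, 17.7 and 19.7 FPKM in siC and 1.32, 1.36 and 1.19 FPKM in siI1 of Hep-G2. It fell to 6.54% of siC (-3.83 ± 0.099, adjusted p = 2.79e-06). It was near the filter in BE(2)-C, at 0.179 and 0.118 FPKM (-0.38, adjusted p = 0.414), and the difference was -3.45 (adjusted p = 1.97e-06). COL18A1, the collagen core protein that carries heparan sulfate in basement membranes, rose in Hep-G2 from 36.8 ± 0.845 to 123 ± 8.64 FPKM (1.74 ± 0.064, adjusted p = 7.06e-06). The BE(2)-C means were 2.81 and 2.32 FPKM (-0.27, adjusted p = 0.152, and 0.0343 with voom), and the difference was 2.01 (adjusted p = 9.44e-07). SPOCK3, a testican of neural tissue, rose in BE(2)-C from 7.65 to 10.95 FPKM (0.52, adjusted p = 0.00785) and had 0 reads in each Hep-G2 library.

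Proteins that shed the cores or bind their tails were tested with 9 genes in each line, 3 higher and 4 lower in Hep-G2 (median -0.12) and 2 higher and 2 lower in BE(2)-C (median 0.02). In Hep-G2, 1 was higher and 4 were lower with equal sums of FPKM (median -0.18), and the median was -0.26 among genes with at least 10 reads on average. PRKCA, protein kinase C alpha, which SDC4 binds and activates, fell from 14.3 ± 1.26 to 3.40 ± 0.493 FPKM in Hep-G2 (-2.05 ± 0.12, adjusted p = 3.34e-05) and from 5.73 ± 0.221 to 3.19 ± 0.376 FPKM in BE(2)-C (-0.83 ± 0.097, adjusted p = 0.00135). The fall was larger in Hep-G2, with a difference of -1.22 (adjusted p = 0.000140). NOTUM, a lipase of the Wnt pathway that binds glypicans, rose in Hep-G2 from 77.9 to 107 FPKM (0.46, adjusted p = 0.00212) and fell in BE(2)-C from 2.43 to 1.38 FPKM (-0.78, adjusted p = 0.00425), a difference of 1.23 (adjusted p = 1.46e-05). The NOTUM value of Hep-G2 was 0.29 with equal sums of FPKM. SDCBP, also named syntenin, which binds the tails of syndecans, fell in Hep-G2 from 34.5 to 21.6 FPKM (-0.67, adjusted p = 6.87e-05), with 0.16 in BE(2)-C (adjusted p = 0.157), a difference of -0.83 (adjusted p = 1.89e-05).

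ADAM17, a protease that sheds syndecan ectodomains, rose in both lines, by 0.44 in Hep-G2 (adjusted p = 0.00403) and 0.54 in BE(2)-C (adjusted p = 0.00468). CASK, a scaffold protein that binds syndecan tails, rose in Hep-G2 by 0.49 (adjusted p = 0.00807), with 0.02 in BE(2)-C (adjusted p = 0.881) and a difference of 0.47 (adjusted p = 0.0164). With equal sums of FPKM, the Hep-G2 calls of ADAM17 (0.27, adjusted p = 0.0794) and CASK (0.33, adjusted p = 0.0810) and the difference for CASK (0.29, adjusted p = 0.190) were lost.

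Heparan sulfate binding ligands and receptors had 9 tested genes in Hep-G2 (4 higher, 3 lower, median 0.29) and 12 in BE(2)-C (4 higher, 1 lower, median 0.25). The 4 higher in BE(2)-C include FGF18, at 0 to 14 reads, which passed the filter there through its siI1 libraries alone. FGF18 was named after its values were seen. With equal sums of FPKM, the Hep-G2 median was 0.14 (3 higher, 3 lower), and among genes with at least 10 reads on average the BE(2)-C median was 0.15. MDK, the heparin-binding growth factor midkine, rose in both lines. It went from 59.7, 68.2 and 66.1 to 151, 202 and 200.1 FPKM in Hep-G2 (1.497 ± 0.12, adjusted p = 0.000127) and from 54.1, 50.4 and 47.2 to 80.4, 75.5 and 79.1 FPKM in BE(2)-C (0.63 ± 0.059, adjusted p = 0.000610), with a difference of 0.87 (adjusted p = 0.000736). PTN, pleiotrophin, the relative of midkine, was at 96.2 ± 7.23 and 99.9 ± 7.15 FPKM in BE(2)-C (0.05, adjusted p = 0.638) and had 0 to 6 reads in the Hep-G2 libraries. HBEGF, a heparin-binding ligand of the epidermal growth factor receptor, fell in Hep-G2 from 2.66 to 0.634 FPKM (-1.94, adjusted p = 0.000386), with -0.31 in BE(2)-C (adjusted p = 0.446) and a difference of -1.63 (adjusted p = 0.00343). A pseudocount of 1 gave HBEGF -1.17 in Hep-G2 and a difference of -1.01. FGFR4, the main fibroblast growth factor receptor of hepatocytes, rose in Hep-G2 from 52.4 to 66.1 FPKM (0.33, adjusted p = 0.00194, and 0.17 with equal sums of FPKM). FGFR4 fell in BE(2)-C from 1.52 to 0.668 FPKM (-1.12, adjusted p = 0.0262), and the difference was 1.46 (adjusted p = 0.00219). The call of this fall was lost without siC replicate 1 or 3 or siI1 replicate 2 or 3 (adjusted p 0.0568 to 0.0818) and with no filter (adjusted p = 0.0515). With a pseudocount of 1, the fall was -0.60 and the difference 0.93.

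Chondroitin sulfate shares the linkage region and the precursors with heparan sulfate. Of its listed genes, 14 were tested in Hep-G2 (2 higher, 8 lower, median -0.61) and 13 in BE(2)-C (2 higher, 6 lower, median -0.30). Equal sums of FPKM gave medians of -0.77 and -0.28 for the 2 lines, median centring -0.52 and -0.26, and voom -0.62 and -0.45. CSGALNACT2, which starts the chondroitin chain, fell in Hep-G2 from 16.7 ± 0.996 to 4.41 ± 0.731 FPKM (-1.91 ± 0.12, adjusted p = 4.44e-05), with 0.19 in BE(2)-C (adjusted p = 0.104) and a difference of -2.10 (adjusted p = 1.75e-06). CHPF, a subunit of the chondroitin polymerase, fell in both lines, from 80.4 to 33.5 FPKM in Hep-G2 (-1.27, adjusted p = 6.53e-05) and from 40.0 to 29.3 FPKM in BE(2)-C (-0.44, adjusted p = 0.00271), a difference of -0.82 (adjusted p = 0.000191). CHSY1, a chondroitin synthase, fell in Hep-G2 (-0.57, adjusted p = 0.00414) and rose in BE(2)-C (0.33, adjusted p = 0.0117), a difference of -0.90 (adjusted p = 0.000171).

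Sulfotransferases of chondroitin differed among themselves. CHST13 rose in Hep-G2 from 23.7 ± 1.28 to 66.2 ± 10.5 FPKM (1.47, adjusted p = 0.000117) and had 0 to 9 reads in the BE(2)-C libraries (-0.28, adjusted p = 0.7999), a difference of 1.75 (adjusted p = 0.0780). This difference was past the threshold with a pseudocount of 1 (1.49, adjusted p = 0.000109) and without siC replicate 1 (2.30, adjusted p = 0.0172) or siI1 replicate 1 (2.16, adjusted p = 0.0379) of BE(2)-C. CHST3 rose in Hep-G2 (0.44, adjusted p = 0.00333) and fell in BE(2)-C (-0.45, adjusted p = 0.00577), a difference of 0.89 (adjusted p = 8.51e-05), and its Hep-G2 call was lost with equal sums of FPKM (0.28, adjusted p = 0.0723). CHST15 fell in both lines, by -0.88 in Hep-G2 (adjusted p = 0.00137) and -1.38 in BE(2)-C (adjusted p = 0.000169). Its difference of 0.50 (adjusted p = 0.0146) was lost with equal sums of FPKM (0.32, adjusted p = 0.157). DSE, the epimerase that turns chondroitin into dermatan sulfate, rose in BE(2)-C from 0.818 to 2.12 FPKM (1.28, adjusted p = 0.000866), with -0.36 in Hep-G2 (adjusted p = 0.164) and a difference of -1.64 (adjusted p = 0.000156), which were 0.78 in BE(2)-C and -0.98 between the lines with a pseudocount of 1. The Hep-G2 value was past the threshold without siI1 replicate 1 (-0.52, adjusted p = 0.0317) and with voom (-0.39, adjusted p = 0.0362).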

How the data were processed

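Poly-A RNA-seq was analysed in 12 libraries, 3 of siC and 3 of siI1 in each of Hep-G2 and BE(2)-C. The authors deposited one table per line with FPKM values for each gene. According to the study's methods and the submitters' processing notes, the authors trimmed reads with cutadapt 1.14, aligned them with HISAT2 2.1.0 and SAMtools 1.5, counted them with featureCounts 1.5.3 and normalized them with edgeR 3.30.3. The libraries were strand-specific per the study's methods, but the strand setting of featureCounts was not given in the sources used here. The tables also hold the authors' own columns of log2 fold changes, p-values and false discovery rates, which were not used.

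From the FPKM values, whole reads per gene were recovered, and the libraries held 12852988 to 15721210 reads on genes. Values were analysed as log2(FPKM + 0.1) with limma 3.58.1 in R 4.3.3, with empirical Bayes variances that follow the mean level. Each line was fitted alone, over its 6 libraries, for genes that reached 0.1 FPKM in 3 or more libraries. The difference between the lines was the interaction term of a fit over 12 libraries, for genes passing in both. P-values were two-sided, adjusted by Benjamini-Hochberg over all tested genes, with a threshold of 0.05. For a single value, an exact permutation of 3 against 3 libraries cannot give a p below 0.1, so none is given.

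The members and gene lists were chosen with earlier results of these data known. Named genes are the members, IGF2BP1, from each list and line the called genes with the largest rise and fall at a mean FPKM of at least 1, the most abundant gene in siC, listed genes called in opposite directions, the most abundant marker genes, and the 5 protein-coding genes whose pair of fold changes is nearest to that of SULF2. GPC4 and SULF1 did not pass the filter. Some genes that this rule names are not reported here. Promoter sequences are from RefSeq and gene models from GENCODE on GRCh38.

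Alternatives were other pseudocounts (0.01 and 1), no filter, a minimum FPKM of 1, median centring, equal sums of FPKM, limma without the trend, voom on the recovered reads, a threshold of 0.01, the replicate number as a block and each library left out. The fit was tested on simulated data and gave more false calls than the threshold names, mostly among genes with very few reads. A fit of genes with at least 10 reads on average was therefore added after seeing the data.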

Additional observations from a re-analysis of the deposited data

Results flagged for a closer look

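For 3 family genes, each siI1 library lay above each siC library in Hep-G2 and below each in BE(2)-C. The log2 fold change in Hep-G2 exceeded that in BE(2)-C by 2.25 for SULF2, 1.30 for SDC2 and 1.49 for GPC1. These differences were not tested, because SULF2 was chosen for its pattern and the others belong to the same chosen family.

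For the listed genes of the pathway, the difference in log2 fold change (Hep-G2 minus BE(2)-C) was tested with limma over 12 libraries. It passed an adjusted p of 0.05 for 40 of the 68 genes tested in both lines. Only those among the genes named in this text are given here. In chain synthesis and modification it was -1.45 for FAM20B, 0.62 for EXT2 and 0.73 for NDST1. Among precursor genes it was -1.35 for UXS1, -0.33 for UGDH, -1.42 for SLC35D2 and -0.45 for SLC35B2. In degradation it was 0.77 for GUSB, while the 2 other genes called there had the lower value in Hep-G2. Other core proteins gave 2.01 for COL18A1, -3.45 for TGFBR3 and -1.29 for GPC3. The GPC3 difference was -0.11 with a pseudocount of 1 (adjusted p = 0.452). Partners of the cores gave 0.47 for CASK, -1.22 for PRKCA, 1.23 for NOTUM and -0.83 for SDCBP. Ligands and receptors gave 0.87 for MDK, -1.63 for HBEGF and 1.46 for FGFR4. In the chondroitin arm it was -2.10 for CSGALNACT2, -0.82 for CHPF, -1.64 for DSE, 0.50 for CHST15, -0.90 for CHSY1 and 0.89 for CHST3. Of these differences, those for UGDH, GPC3, CASK and CHST15 lost their call in some alternatives, as given above.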

How the results depend on the processing

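None of the 8 tested family genes changed the sign of its fold change in any alternative run. Over the alternatives, SULF2 ranged from 1.30 to 1.56 in Hep-G2 and from -0.81 to -0.75 in BE(2)-C. Of the family values, 444 were marked as the same and 10 as moved. The 10 were for SULF2, SDC2, SDC4 and GPC2, with another scaling or a pseudocount of 1. Shifts beyond 1 standard error could stay unmarked, such as that of GPC1 in Hep-G2 (0.27, and 0.10 with equal sums of FPKM). SDC1 ranged from -0.42 to -0.16 and SDC3 from -0.44 to -0.17 in Hep-G2. For named pathway genes, 1882 values stayed on the same side of the threshold, 87 lost and 27 gained a call, and no call turned its direction. Of the values past it in neither fit, 15 changed sign. At an adjusted p below 0.01, 2727 genes were higher in Hep-G2 (4250 at 0.05), 1139 higher and 1475 lower in BE(2)-C (2489 and 2763), 4071 differed between the lines (6180), and 13 listed pathway genes were lower in BE(2)-C (22). With equal sums of FPKM, 12 listed genes were higher in Hep-G2 (19), and 35.5% of all calls there were higher (48.8% otherwise, 57.6% with median centring). Without single libraries, 1519 to 2103 genes were higher in BE(2)-C, lowest without siI1 replicate 3 (1519), 2 (1564) and 1 (1634). Single libraries stood apart on the second principal component of each line. In Hep-G2 this was siI1 replicate 1 (-55.5, beside 20.4 and 26.9 for its replicates). In BE(2)-C it was siC replicate 2 (-52.2, beside 28.8 and 24.0). Without siI1 replicate 1 of Hep-G2, 4574 genes were higher and 4973 lower there (4250 and 4463 with it). The fit on genes with at least 10 reads on average, chosen after seeing the data, called 4213 genes of Hep-G2 higher and 4523 lower, and 2696 and 3085 of BE(2)-C. Genes with few reads, such as GPC2, GPC3 and GPC5 in their low line, are limited by depth.

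Same-numbered libraries did not pair: their deviations correlated by 0.0625, 0.0351 and -0.00619 in Hep-G2 and by 0.0225, -0.0102 and -0.00283 in BE(2)-C. Blocking on this number, Hep-G2 had 4318 genes higher and 4502 lower, BE(2)-C 2141 and 2531, and 6295 differed between the lines. The block ended the BE(2)-C call of GPC3 (adjusted p = 0.0546) and the difference for UGDH (adjusted p = 0.0635), and SLC35D2 gained a call in Hep-G2 (adjusted p = 0.0242).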

Other observations

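Among 11083 other protein-coding genes tested in both lines, the pair of log2 fold changes (Hep-G2, BE(2)-C) nearest to that of SULF2 by Euclidean distance belonged to JUND, TLCD1, TSPAN33, TGFBR3L and CXXC5. This is a description over the 2 lines, without a test, since nearness to SULF2 chose the genes. JUND, a subunit of the AP-1 transcription factor, was at 60.1, 67.9 and 66.1 FPKM in siC and 147, 182 and 198 FPKM in siI1 of Hep-G2. In BE(2)-C it was at 100.6, 87.0 and 94.2 FPKM in siC and 53.9, 49.2 and 56.4 FPKM in siI1, a distance of 0.0445. CXXC5, a zinc finger protein, had means of 13.8 and 36.3 FPKM in Hep-G2 and 25.5 and 15.4 FPKM in BE(2)-C, a distance of 0.103. The distance was 0.0479 for TLCD1, 0.0809 for TSPAN33 and 0.0858 for TGFBR3L, and the last rests on 10 to 39 reads.

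GPC5, a glypican outside the chosen family, was at 0.0393, 0.0220 and 0.0404 FPKM in siC and 0.292, 0.539 and 0.366 FPKM in siI1 of BE(2)-C. These values come from 1 to 27 reads a library. Each siC library lay below the minimum of 0.1 FPKM and each siI1 library above it, so the gene entered the fit through siI1 alone, and no p-value is given. It was named after its values were seen, and in Hep-G2 it was not tested, with 0 to 3 reads.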
